A study of Mus musculus with 2 samples.

Results

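Retinoic acid is made from vitamin A inside tissues and acts over short distances. Retinol travels in blood bound to retinol-binding protein. In cells it is oxidized to retinal by reversible dehydrogenases and then, irreversibly, to retinoic acid by the retinaldehyde dehydrogenases, bound in the cell by small carrier proteins, sensed by nuclear receptors that act as partners of the retinoid X receptors, and destroyed by enzymes of the CYP26 family. The 9 genes described here cover these steps: Rbp4, which carries retinol; Aldh1a1, Aldh1a2 and Aldh1a3, which make retinoic acid; Crabp2, which binds it in the cell; Rara, Rarb and Rarg, its receptors; and Cyp26b1, which breaks it down. All 9 of 9 were among the 19169 genes of the deposited table. They were picked by name, with their levels in these cells already known, so the levels and the ratios between libraries below are a description and carry no test.

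The cells came from the gastrocnemius muscle of male C57BL/6J WT mice and of mice with a global KO of Gsdme, the gene of the pore-forming protein gasdermin E, on day 14 after both had received an injection of cardiotoxin (CTX, 50 µL at 10 µM), which destroys muscle fibers. The age was not given in the sources used here, and neither was whether the 5 mice per genotype were pooled. There was 1 library per genotype, so cells are not replicates, no p-value is given, and the genotype cannot be told apart from any other difference between the libraries. A droplet library counts RNA molecules by unique molecular identifiers (UMIs); the WT-labelled library held 44758518 UMIs in 6354 cells and the KO-labelled library 50930009 UMIs in 7078 cells. The libraries shared 4 barcode sequences. Gsdme itself had 225 UMIs in the WT-labelled library and 237 in the KO-labelled library, a log2 KO/WT ratio of -0.11 (95% interval, -0.38 to 0.16), so this check of the labels showed no loss of Gsdme RNA, and every direction given here rests on the labels. Where the KO allele is altered is not given in the sources used here.

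Levels are given per 1000000 UMIs (CPM): a gene's UMIs summed over the cells of a type, as a share of all UMIs of those cells, with an exact 95% Poisson interval that covers counting error only. Cells were grouped with all the retinoid genes and known targets left out of the clustering. A group was named "-like" from its marker genes, and 10 named types had at least 50 cells in each library. The largest were cells resembling fibro-adipogenic progenitors (FAPs), the stromal cells between the fibers, with 1715 cells in the WT-labelled library and 2194 in the KO-labelled library. Endothelial-like (1295 and 1262), macrophage-like (845 and 1030) and tenocyte-like cells (399 and 338) followed, the last resembling tendon fibroblasts. Cells like muscle stem cells (MuSCs; 248 and 249), smooth muscle (193 and 232), Schwann cells, the glia of nerves (197 and 156), dendritic cells (115 and 128), lymphatic endothelium (83 and 79) and T cells (82 and 86) made up the rest. The smooth muscle-like cells were a mixed mural group by their markers: 7 pericyte markers summed to 19088 and 22002 CPM in them and 6 smooth muscle markers to 8471 and 6175 CPM, and genes of both were among their leading genes.

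The genes were not all highest in the same cell type. For Aldh1a1 and the receptors, the counting intervals of the highest type and the next overlapped in at least 1 library. FAP-like cells had the highest level of 4 of the 9 genes (Rbp4 and the 3 synthesis enzymes), against 5.03% of the 12205 genes that reached 200 UMIs. Cyp26b1 was highest in endothelial-like cells (11.1% of genes were), Rara in macrophage-like cells (7.63%), Crabp2 in Schwann-like cells (16.8%), and Rarb and Rarg in tenocyte-like cells (5.67%). MuSC-like cells, which regenerate the fibers, held Aldh1a1 at about the level of FAP-like cells and were the highest type for none of the 9.

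**Figure D1:**
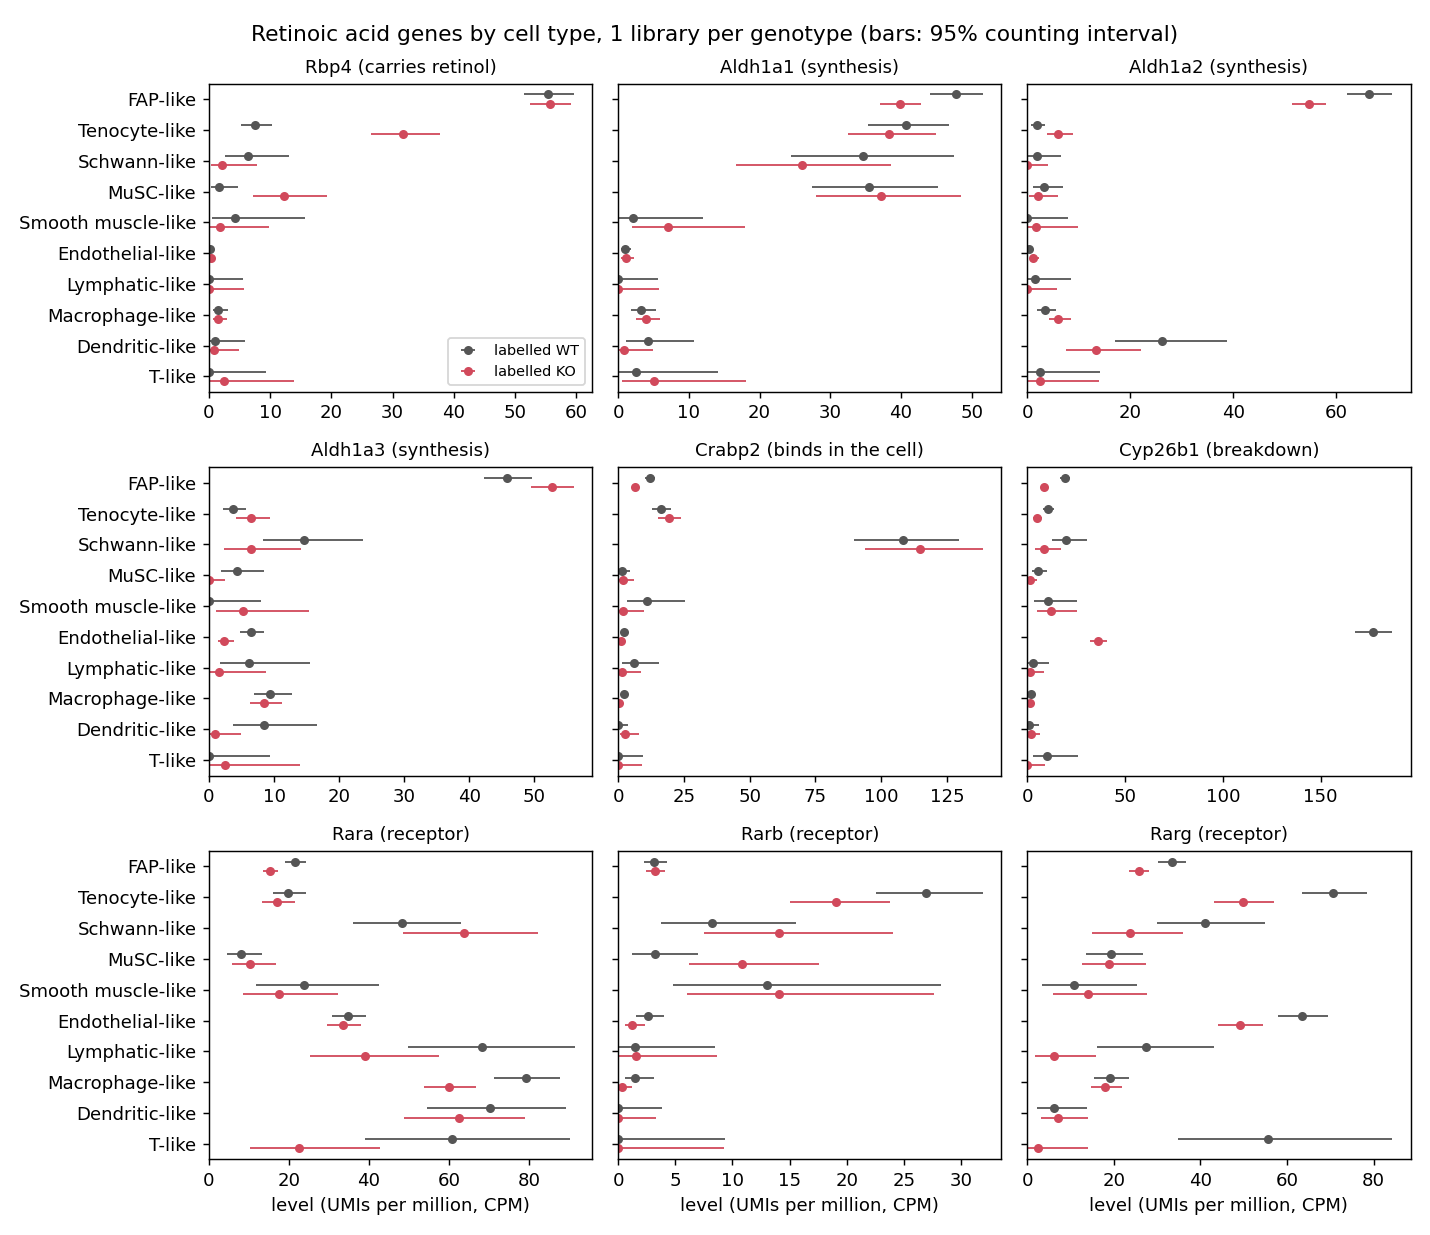
Level of each of the 9 genes (x axis, CPM) in the 10 named cell types (y axis). Points are the libraries labelled WT (grey) and KO (red), and bars are 95% counting intervals. Rbp4, Aldh1a2 and Aldh1a3 peak in FAP-like cells, Crabp2 in Schwann-like cells and Cyp26b1 in endothelial-like cells, where its level was 177 CPM in the WT-labelled library and 36.3 CPM in the KO-labelled library.

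In the mouse genome (GRCm38.p6, the release of the mm10 build in RefSeq), Cyp26b1 lies at chr6:84571414-84593908, Aldh1a1 at chr19:20492583-20643463, Aldh1a2 at chr9:71215789-71296243 and Aldh1a3 at chr7:66390892-66427477. Rbp4 is at chr19:38116620-38125321, Crabp2 at chr3:87948693-87953372, Rara at chr11:98927800-98974942, Rarb at chr14:16430839-17082331 and Rarg at chr15:102234938-102257522. Several genes of the pathway are also known targets of it, and Rarb is the classic one. The receptors bind pairs of short sites that face the same way, so promoters were searched on both strands for any 2 such sites in a row, 5 bases apart. The site could be AGGTCA in its standard form, GGGTCA with the first letter replaced, AGTTCA with the third replaced, or GGTTCA with both. Windows of 250 bases before to 50 bases after a start of a gene were at hand in RefSeq for 7 of the 9 genes (13 windows). Some genes had windows at more than 1 start. Of all 32851 windows, 32 (0.0974%) held such a repeat, and among the members it occurred in Rarb alone, in the window chr14:16575427-16575726 (minus strand). It begins 53 bases before the start that this window is drawn around. That start lies inside the span given above for Rarb, not at the outer end where a minus-strand gene begins. The repeat is printed here, with the sites in capitals, because Rarb is the member whose response to retinoic acid is best known.
Rarb: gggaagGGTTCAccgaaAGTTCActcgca
The match is a description of the letters in these windows only.

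The dehydrogenases that make retinoic acid were measured mostly in stromal cells. Aldh1a2 stood at 66.3 CPM (62.0 to 70.8) in FAP-like cells of the WT-labelled library and at 54.6 CPM (51.3 to 58.1) in the KO-labelled library. These cells held 79.2% and 81.2% of all UMIs of the gene. The next type was dendritic-like cells, at 26.2 and 13.4 CPM, and the intervals of the 2 types did not overlap in either library. An unnamed group led by Lyz1, Retnla and Ear2, genes of myeloid cells, had still more Aldh1a2: 103 CPM (84.3 to 125) in 111 cells of the WT-labelled library and 80.2 CPM (65.2 to 97.5) in 142 cells of the KO-labelled library. Macrophage-like cells, by contrast, were at 3.44 and 6.06 CPM.

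Aldh1a3 was at 45.8 CPM (42.2 to 49.6) and 52.7 CPM (49.5 to 56.1) in FAP-like cells of the WT- and KO-labelled libraries, and 75.6% and 87.8% of its UMIs lay there. The next type, Schwann-like cells, had 14.6 and 6.49 CPM. Aldh1a1 was spread more widely. Its levels were 47.7 CPM (44.1 to 51.6) and 39.9 CPM (37.1 to 42.9) in FAP-like cells, 40.7 and 38.4 CPM in tenocyte-like cells, 35.5 and 37.2 CPM in MuSC-like cells, and 34.6 and 26.0 CPM in Schwann-like cells. Neighbours in this order could not be told apart by their counting intervals in both libraries. Smooth muscle-like cells, the next in order, had 2.16 and 7.02 CPM, the latter overlapping with Schwann-like cells, and endothelial-like cells 0.920 and 1.12 CPM. A near-identical neighbour of Aldh1a1 in the genome, Aldh1a7, shares sequence with it, and how the counting treated shared reads was not given in the sources used here.

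Among the groups of stromal cells, Aldh1a3 peaked in a different group from Aldh1a1 and Aldh1a2. FAP- and tenocyte-like cells clustered again gave 5 named groups, called after the marker genes of the study: FAPs-0 (led by Dlk1, Hsd11b1 and Mme), FAPs-3 (Gdf10 and C2), FAPs-4 (Sbsn, Efemp1 and Pi16), FAPs-6 (Clu and Cyp2f2) and FAPs-2 (Fmod and Tnmd, the tenocyte-like cells). The study's FAPs-1 and FAPs-5 did not appear as groups here. By mean log2 fold, FAPs-1 markers came second in FAPs-0 (1.39 against 2.09) and FAPs-5 markers second in FAPs-2 (4.22 against 4.99). At resolution 0.8 a group of 497 and 665 cells was named FAPs-1, and only 162 and 187 cells FAPs-0. The names FAPs-0 and FAPs-2 below thus may cover more than the study's groups of those names. Aldh1a3 was concentrated in FAPs-4, cells with the markers of the least differentiated FAPs. It reached 166 CPM (151 to 182) there in 329 cells of the WT-labelled library and 208 CPM (194 to 223) in 454 cells of the KO-labelled library, and it was at 18.5 and 15.3 CPM in FAPs-0 and under 13 CPM in the other 3 groups. Aldh1a2 was highest in FAPs-0, at 88.8 CPM (82.2 to 95.8) and 62.8 CPM (58.3 to 67.5), with 42.6 and 54.7 CPM in FAPs-4, 46.0 and 23.0 CPM in FAPs-3, 26.8 and 30.7 CPM in FAPs-6, and 2.03 and 5.95 CPM in FAPs-2. In the KO-labelled library the interval of FAPs-4 (47.5 to 62.7) overlapped that of FAPs-0. A finer clustering, at resolution 0.8, split FAPs-0 and gave the highest level of Aldh1a2 in a group of 162 and 187 cells (226 and 252 UMIs) led by Hsd11b1, G0s2 and Cxcl14, at 216 CPM (189 to 246) and 179 CPM (158 to 202). Aldh1a1 varied less, from 23.6 and 21.0 CPM in FAPs-6 to 58.5 and 46.0 CPM in FAPs-0. For Aldh1a1 the interval of FAPs-0 overlapped that of FAPs-3 (32.1 to 61.1) in the WT-labelled library. In the KO-labelled library it overlapped that of FAPs-2 (32.7 to 44.8), among others.

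Few cells gave a read of these enzymes at a fixed depth. After every cell was thinned to 1000 UMIs, 18.9% of FAPs-4 cells (60 of 317; 95% interval, 14.8% to 23.7%) of the WT-labelled library and 21.7% (97 of 446; 18.0% to 25.9%) of the KO-labelled library had a UMI of at least 1 of the 3 genes. The shares were 13.5% and 11.9% in FAPs-0, 7.14% and 7.32% in FAPs-3, 5.24% and 6.27% in FAPs-6, and 3.85% and 4.78% in FAPs-2. Cells with 2 or more of the 3 enzymes numbered 7 of 914 and 10 of 1264 in FAPs-0 and 4 of 317 and 4 of 446 in FAPs-4.

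**Figure D2:**
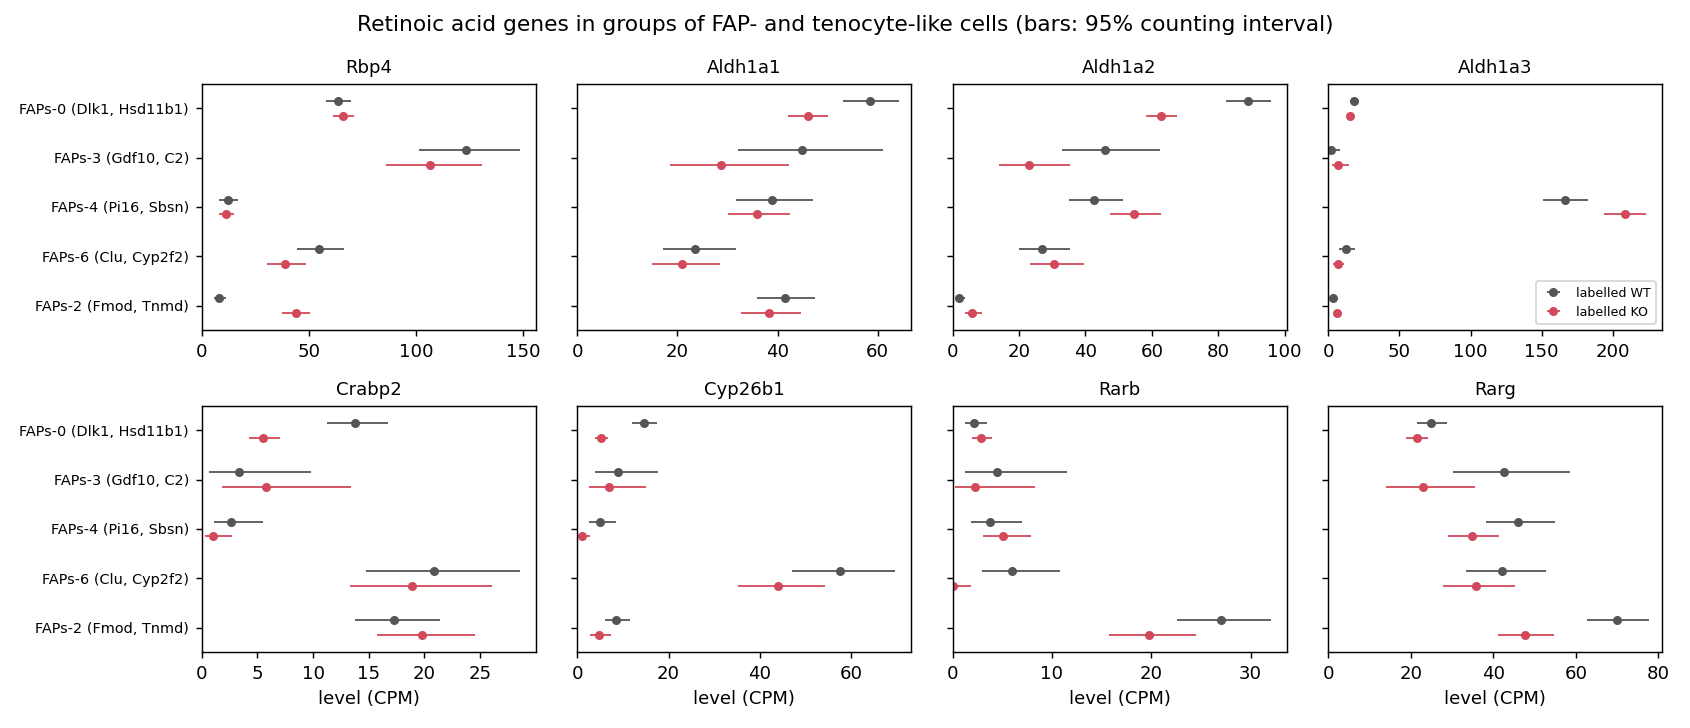
Levels (x axis, CPM) of 8 of the 9 genes in 5 groups of FAP- and tenocyte-like cells (y axis, with 2 of the leading genes of each group). Points are the libraries labelled WT (grey) and KO (red), and bars are 95% counting intervals. Aldh1a3 stands at 166 and 208 CPM in FAPs-4, Aldh1a2 peaks in FAPs-0, Rbp4 in FAPs-3, Cyp26b1 in FAPs-6 and Rarb in FAPs-2. For Aldh1a2 the intervals of FAPs-0 and FAPs-4 overlap in the KO-labelled library.

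The retinol carrier followed a related stromal pattern. Rbp4, better known as a product of liver and fat, was at 55.5 CPM (51.5 to 59.6) and 55.7 CPM (52.4 to 59.2) in FAP-like cells, which held 89.3% and 83.6% of its UMIs. Among the stromal groups it was highest in FAPs-3, at 123 CPM (101 to 149) and 107 CPM (86.2 to 131), with 63.8 and 66.1 CPM in FAPs-0 and 12.2 and 11.2 CPM in FAPs-4, the group of high Aldh1a3. Markers of adipocytes were near 0 in FAP-like cells, with a summed level of 0.227 and 0.266 CPM over 4 markers, of which 3 and 2 had no UMI.

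The cell-bound carrier of retinoic acid was at its highest level, among the 10 named types, in glial cells, but most of its UMIs lay elsewhere. Crabp2 stood at 108 CPM (89.8 to 130) in Schwann-like cells of the WT-labelled library and at 115 CPM (93.9 to 139) in the KO-labelled library, with tenocyte-like cells next at 16.2 and 19.3 CPM. Schwann-like cells held 26.8% and 23.7% of its UMIs, the far more numerous FAP-like cells 35.6% and 27.0%, and tenocyte-like cells 18.0% and 17.4%. A smaller group of perineurial-like cells, the sheath cells of nerves, had 204 CPM (27 UMIs in 12 cells) and 606 CPM (96 UMIs in 19 cells); it falls outside the rule of 50 cells per library and was chosen after its values were seen. In FAP-like cells Crabp2 was lower in the KO-labelled library, at 12.0 against 6.45 CPM, and that difference lay in FAPs-0 (13.8 and 5.51 CPM) rather than in FAPs-6 (20.8 and 18.9 CPM).

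The receptors were more evenly spread than the enzymes, and each had its own order of cell types. Rara had its highest mean level over the libraries in macrophage-like cells, though several types overlapped with them. It stood at 79.3 CPM (71.4 to 87.8) and 60.0 CPM (53.9 to 66.7) in macrophage-like cells at 70.3 and 62.6 CPM in dendritic-like cells and at 48.3 and 63.9 CPM in Schwann-like cells, the highest of the KO-labelled library. The unnamed myeloid group led by Lyz1 had 18.6 and 15.2 CPM. Rara was lowest in MuSC-like cells, at 8.08 and 10.2 CPM. Rarg was highest in tenocyte-like cells, at 70.7 CPM (63.5 to 78.5) and 49.7 CPM (43.1 to 57.1), and in endothelial-like cells, at 63.5 CPM (57.9 to 69.4) and 49.1 CPM (44.1 to 54.5). The 2 types overlapped, and both stood above Schwann-like cells, the next by the mean of the libraries, at 41.0 and 23.8 CPM. Rarb had few UMIs and was highest in tenocyte-like cells, at 26.9 CPM (22.6 to 31.9) and 19.1 CPM (15.04 to 23.8), where 52.8% and 32.6% of its UMIs lay, with 12.99 and 14.03 CPM in smooth muscle-like cells and 3.18 and 3.20 CPM in FAP-like cells. T-like cells had 55.7 CPM (34.9 to 84.3) of Rarg in the WT-labelled library, which overlapped with both of those types, and 2.51 CPM in the KO-labelled library, from 22 UMIs and 1 UMI, too few for a ratio under the rule used here.

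The breakdown enzyme was highest in the endothelium. Cyp26b1 was at 177 CPM (168 to 187) in endothelial-like cells of the WT-labelled library, from 1346 UMIs, and at 36.3 CPM (32.1 to 41.0) in the KO-labelled library, from 260 UMIs. These cells held 63.1% and 41.7% of its UMIs. The next named types were Schwann-like cells, at 20.04 and 8.66 CPM, FAP-like cells, at 19.2 and 8.52 CPM, and smooth muscle-like cells, at 10.8 and 12.3 CPM, the order of which differed between the libraries. Lymphatic-like cells had 3.04 and 1.56 CPM and macrophage-like cells 2.15 and 1.56 CPM. At 1000 UMIs per cell, 14.1% (174 of 1232; 12.2% to 16.2%) of endothelial-like cells of the WT-labelled library had a UMI of Cyp26b1 and 4.34% (53 of 1220; 3.27% to 5.64%) of the KO-labelled library; without thinning the shares were 29.7% and 13.8%. Macrophage-like cells had 10 and 9 UMIs of the gene. Of these, 6 and 6 lay in a group of 43 and 54 of the cells led by the stromal genes Col3a1 and Dcn. Over all macrophage-like cells the thinned shares were 0.261% (2 of 766) and 0 of 934. At that depth 0 of 934 allows a share of up to 0.321% by the floor of 3 counts (exact upper limit, 0.394%). At 2000 UMIs per cell, 2 of 697 and 5 of 833 macrophage-like cells had a UMI of Cyp26b1.

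Among the named stromal groups Cyp26b1 was highest in FAPs-6. It had 57.5 CPM (47.0 to 69.6) and 44.0 CPM (35.2 to 54.3) there, whereas the other 4 named groups had at most 14.6 CPM in the WT-labelled library and 6.89 CPM in the KO-labelled library. FAPs-0, with far more cells, held 109 and 61 UMIs of the gene against 105 and 86 in FAPs-6. The summed level of 7 endothelial markers in FAPs-6 was 0.708% and 0.414% of that in endothelial-like cells, while Cyp26b1 was 32.5% and 121% of its endothelial level. In the KO-labelled library the interval of FAPs-6 overlapped that of endothelial-like cells (32.1 to 41.0 CPM). A further, unnamed group of 28 and 18 cells, led by the endothelial genes Fabp4, Cd36 and Flt1, had 25 and 2 UMIs.

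Between the libraries, the ratio is given as log2 of the level in the KO-labelled library over that in the WT-labelled library, with an interval from the exact binomial share of UMIs, for pairs of gene and type with at least 50 UMIs over both. Of 32 such pairs in named types, 9 differed by 1.5-fold or more, 7 of them lower in the KO-labelled library. In 8 of these 9 the counting interval excluded 0, and some pairs under 1.5-fold also had intervals that excluded 0. The share of all genes past the same size differed by type: 8.17% of 10168 genes in endothelial-like cells (2 of 4 members), 10.0% of 11544 genes in FAP-like cells (2 of 9 members), 11.3% of 9060 genes in tenocyte-like cells (2 of 7), 12.1% of 9027 in macrophage-like cells (1 of 4), 12.9% of 6168 in Schwann-like cells (1 of 4) and 15.2% of 4062 in lymphatic-like cells (1 of 1). Neither of 2 pairs in MuSC-like cells (22.7% of genes) nor the 1 in dendritic-like cells (17.3%) passed it, and no pair in smooth muscle- or T-like cells had enough UMIs.

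**Figure D3:**
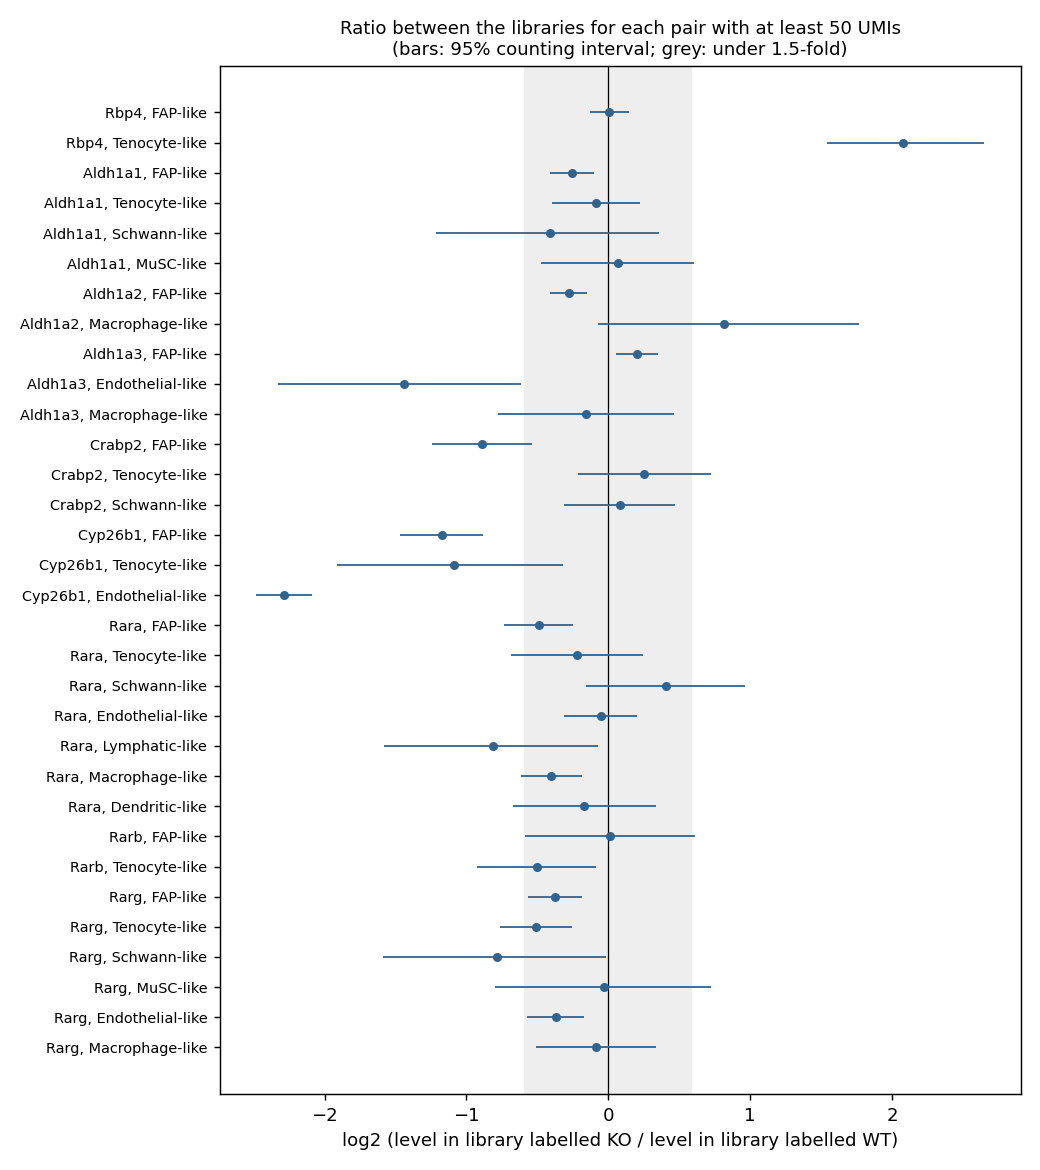
Log2 ratio between the libraries (x axis; KO-labelled library over WT-labelled library) for the 32 pairs of gene and cell type with at least 50 UMIs (y axis). Points are ratios, bars 95% counting intervals, and the grey band holds ratios under 1.5-fold. Cyp26b1 in endothelial-like cells stands at -2.28 and Rbp4 in tenocyte-like cells at 2.08, and most other pairs lie within or near the band.

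Cyp26b1 in endothelial-like cells gave the lowest ratio of the 32 pairs, at -2.28 (-2.48 to -2.09), a level 4.87-fold higher in the WT-labelled library. Only 13 of the 10168 genes tested in these cells, Cyp26b1 included, had a ratio this low, and 3.97% were lower in the KO-labelled library by 1.5-fold or more. The ratio was -1.54 (-1.86 to -1.24) in an unnamed group with markers of both pericytes and endothelium (68.6 and 23.5 CPM) and -2.50 (-3.63 to -1.54) in one with markers of both MuSCs and endothelium (52.1 and 9.17 CPM). Rbp7, a retinol-binding protein of endothelium and fat, was nearly as far apart, with 471 CPM (456 to 487) and 117 CPM (110 to 126) and a ratio of -2.005 (-2.115 to -1.896). This difference was not confined to endothelial-like cells. The ratio of Rbp7 was -3.91 in FAP-, -2.44 in MuSC-, -0.84 in lymphatic- and -0.67 in Schwann-like cells, the other named types with at least 50 UMIs. Markers of other cells also differed between the libraries. The summed level of 5 erythroid markers in endothelial-like cells was 1286 CPM in the WT-labelled library and 6700 CPM in the KO-labelled library, and that of 7 fiber markers 434 and 295 CPM; their part in the result was not tested. The 7 endothelial markers themselves summed to 8283 and 8889 CPM.

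The difference in Cyp26b1 was seen in most groups of blood endothelium. Endothelial- and lymphatic-like cells were clustered again, and the groups at resolution 0.8 are used because a lower resolution left most of these cells in 1 group, a choice made after the clusters were seen. In 8 of 9 groups of at least 50 cells, lymphatic-like cells aside, the level was lower in the KO-labelled library, and all 6 groups with at least 50 UMIs of the gene were past 1.5-fold, with ratios from -3.06 to -1.43. In the WT-labelled library the level ranged from 22.3 CPM in a small arterial-like group led by Cytl1 and Mgp, which had 2 and 4 UMIs and was the exception, to 420 CPM (378 to 465) in a group led by Cyp26b1 and Timp4. In the KO-labelled library the highest level was 81.2 CPM (64.3 to 101), in a group led by Mbp and Aplnr. Arterial-like groups joined had 138 and 35.3 CPM, and the venous-like group, with 26 and 9 UMIs, had 63.4 and 39.0 CPM. Rbp7 had another pattern, with 1815 and 451 CPM in arterial-like cells, but it too was lower in the KO-labelled library, in all 9 groups.

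**Figure D4:**
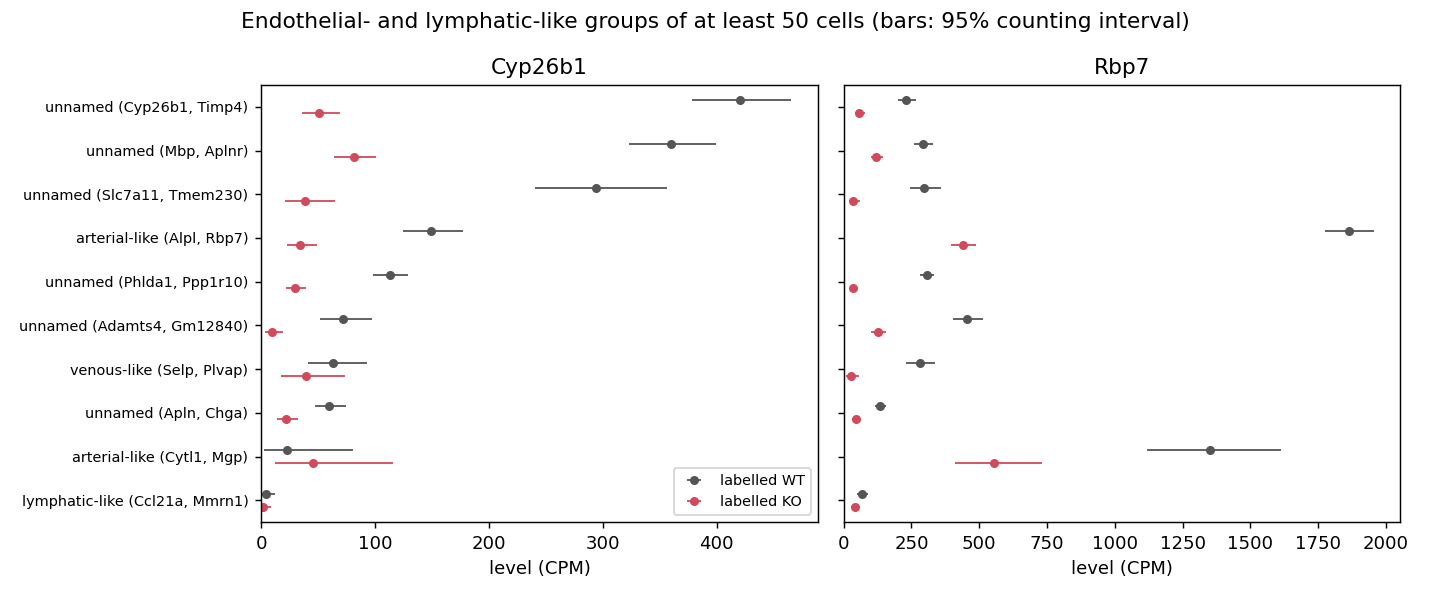
Levels (x axis, CPM) of Cyp26b1 (left) and Rbp7 (right) in the 10 groups of endothelial- and lymphatic-like cells with at least 50 cells (y axis, with 2 leading genes of each). Points are the libraries labelled WT (grey) and KO (red), and bars are 95% counting intervals. Cyp26b1 is lower in the KO-labelled library in all but the small arterial-like group led by Cytl1, and Rbp7 in all 10.

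In FAP- and tenocyte-like cells as a whole Cyp26b1 was also lower in the KO-labelled library, but not in every group of them. Its ratio was -1.17 (-1.47 to -0.88) in FAP-like cells, or -2.68 where cells were thinned before clustering and -1.68 at resolution 0.4, and -1.09 (-1.91 to -0.32) in tenocyte-like cells. Within them it was -1.47 in FAPs-0 (14.6 and 5.25 CPM) and -0.39 (-0.82 to 0.04) in FAPs-6 (57.5 and 44.0 CPM), the group of the highest level. At resolution 0.8 the ratio was -0.10 (48.5 and 45.2 CPM) in FAPs-6 and -3.10 (34.1 and 3.97 CPM) in a group of 210 and 299 cells led by heat-shock genes such as Hspa1a and Hspb1, which dissociation can induce. In FAPs-5, a group at that resolution led by Col22a1 and Chodl, it was higher in the KO-labelled library, at 2.79 CPM (6 UMIs) and 8.46 CPM (23 UMIs), too few for a ratio.

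Rbp4 in tenocyte-like cells was the only pair with a counting interval wholly above the band. It had 37 UMIs (7.49 CPM; 5.28 to 10.3) in the WT-labelled library and 128 (31.7 CPM; 26.4 to 37.7) in the KO-labelled library, a ratio of 2.08 (1.54 to 2.65), and 18 of the 9060 genes tested were this high or higher; 7.14% of genes were higher in the KO-labelled library by 1.5-fold or more. In FAP-like cells the ratio of Rbp4 was 0.01 (-0.13 to 0.15). Tenocyte-like cells were not 1 group. At resolution 0.8 they held cells led by Wif1 and Chad, with almost no Rbp4 (0.318 and 4.44 CPM), and cells led by Col22a1 and Chodl (FAPs-5), which made up 37.1% of the tenocyte-like cells in the WT-labelled library and 44.97% in the KO-labelled library and carried most of the gene. Within the tenocyte-like cells of FAPs-5 Rbp4 had 21.9 and 60.5 CPM, a ratio of 1.47 (0.92 to 2.05). Taken over all cells of FAPs-5, including those that the first clustering placed with FAP-like cells, it had 71.1 and 94.8 CPM and a ratio of 0.42. The size of the Rbp4 difference thus depended on which cells were counted as tenocyte-like, and it was 1.18 with clusters at resolution 0.4. Markers of FAPs in tenocyte-like cells summed to 78160 and 61580 CPM over 7 genes and those of tenocytes to 23005 and 22332 CPM, with none at 0; their part in the result was not tested.

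The synthesis enzymes were closer between the libraries where they were high. Ratios in FAP-like cells were -0.26 (-0.41 to -0.10) for Aldh1a1, -0.28 (-0.41 to -0.15) for Aldh1a2 and 0.20 (0.06 to 0.35) for Aldh1a3, each under 1.5-fold. Aldh1a3 in endothelial-like cells had a ratio of -1.44 (-2.33 to -0.62), from 49 and 17 UMIs, at levels of 6.44 and 2.38 CPM. The UMIs lay in 18 of 1295 and 16 of 1262 cells (1.39% and 1.27%), and at 1000 UMIs per cell in 5 of 1232 and 3 of 1220, so similar shares of cells had the gene while UMIs per such cell differed. The FAP markers in endothelial-like cells summed to 1559 and 1213 CPM. Aldh1a2 in macrophage-like cells was at 0.82, but its interval (-0.07 to 1.77) held 0. Of its 16 and 35 UMIs, 5 and 20 lay in a group of 43 and 54 macrophage-like cells led by the stromal genes Col3a1 and Dcn, at 13.5 and 32.4 CPM, while the group led by Mucl1 and Lyve1 had 3 and 7.

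For the receptors, every ratio with an interval that excluded 0 was below 0. Between 2.56% and 14.8% of all genes tested in the type were as low. The share was 13.3% for Rara in macrophage-like and 9.42% in FAP-like cells. For Rarg it was 9.16% in endothelial-, 14.8% in FAP- and 5.56% in tenocyte-like cells, and for Rarb 5.78% in tenocyte-like cells. It was 2.56% for Rara in lymphatic-like and 2.90% for Rarg in Schwann-like cells. In macrophage-like cells Rara was at -0.40 (-0.62 to -0.19) and in FAP-like cells at -0.49 (-0.73 to -0.25). Rarg was at -0.37 in both endothelial- and FAP-like cells and at -0.51 (-0.76 to -0.25) in tenocyte-like cells, and Rarb was at -0.50 (-0.92 to -0.08) there. Rara in lymphatic-like cells (45 and 25 UMIs) and Rarg in Schwann-like cells (45 and 22 UMIs) passed 1.5-fold at -0.81 (-1.58 to -0.07) and -0.78 (-1.59 to -0.02), but the first was -0.08 as a mean over cells. Rara in endothelial-like cells did not differ beyond counting error, at -0.05 (-0.31 to 0.20), and Crabp2 in Schwann-like cells was at 0.08 (-0.31 to 0.47).

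The wider pathway was read from a list of 42 genes of retinoid handling and a list of 15 genes known to respond to retinoic acid, which overlap with the members. In endothelial-like cells 18 genes of the first list had at least 50 UMIs, of which 3 were past 1.5-fold and lower in the KO-labelled library (Cyp26b1, Rbp7 and Aldh1a3) and none was higher, with a median ratio of -0.27 against 0.03 over all genes, of which 3.97% were lower and 4.20% higher by that size. Of the target list, 2 of 8 were lower (Cyp26b1 and Hic1, a transcriptional repressor) and none higher, with a median of -0.12. FAP-like cells had 4 of 25 genes of the first list lower (Cyp26b1, Crabp2, Rbp7 and Rdh13) and none higher, with a median of -0.17 against -0.05 over all genes (6.42% lower, 3.59% higher). Of the targets, 3 of 9 were lower, with a median of -0.46. Tenocyte-like cells had 4 of 21 genes of the first list lower (Cyp26a1, Cyp26b1, Rdh10 and Rdh13) and 2 higher, Rbp4 among them. Their median was -0.12 against 0.06 over all genes, of which 4.16% were lower and 7.14% higher. Macrophage-like cells had 1 of 16 higher (Aldh1a2, much of it in the cells led by stromal genes), against 5.67% of all genes.

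Other steps of the pathway had their own cell types. Rdh10, which begins the oxidation of retinol, was highest in FAP-like cells, at 77.0 and 80.1 CPM, the type that also held the synthesis enzymes. Dhrs3, which turns retinal back into retinol, was highest in macrophage-like cells, at 187 and 173 CPM, and stood at 102 and 86.7 CPM in endothelial-like cells. Adh1, an alcohol dehydrogenase, was highest in endothelial-like cells, at 69.8 and 50.7 CPM, and so was Fabp5, a fatty acid-binding protein that also binds retinoic acid, at 1028 and 796 CPM. Crabp1, the close relative of Crabp2, was a tenocyte-like gene, at 62.0 and 41.3 CPM, and had 1.44 and 0.373 CPM in FAP-like cells. Rxrg was found in Schwann-like cells, at 46.4 and 71.4 CPM, and Rxra and Rxrb were also highest there (47.4 and 50.9 CPM for Rxra, 41.9 and 46.5 CPM for Rxrb). Adh5 (65.6 and 71.4 CPM), Dhrs4 (35.5 and 31.4 CPM) and Rdh14 (24.6 and 22.7 CPM) were highest in Schwann-like cells too, Rdh5 (97.4 and 68.4 CPM) and Rdh13 (30.3 and 19.3 CPM) in smooth muscle-like cells, and Rdh11 (40.5 and 25.1 CPM) and the acyltransferase gene Dgat1 (400 and 504 CPM) in T-like cells. Adh7 was low everywhere, with its highest level in FAP-like cells, at 4.62 and 5.86 CPM. Among the targets, Rarres2, which encodes the secreted protein chemerin, was highest in FAP-like cells, at 586 and 497 CPM. The transglutaminase gene Tgm2 peaked in lymphatic-like cells, at 301 and 246 CPM, Rarres1 in endothelial-like cells, at 40.7 and 41.8 CPM, Nrip1 in T-like cells, at 261 and 256 CPM, and Hic1 in smooth muscle-like cells, at 75.8 and 68.4 CPM.

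The genes whose levels most resembled each member were read from Pearson's r of log2(CPM + 1) over 20 points, the 10 named types in both libraries, among 12204 other genes. The points share libraries and depth, and the values are descriptions. Cyp26b1 was most like Thrsp (0.85), Gopc (0.84) and Uaca (0.84), and Rbp4 most like Glt8d2 (0.92), Loxl1 (0.92) and the collagen gene Col3a1 (0.91). Aldh1a2 followed Dmkn (0.89), Krtdap (0.84) and Pi16 (0.82), genes that also led or marked FAPs-4, and Aldh1a3 followed Sult5a1 (0.86), Cyp1b1 (0.84) and Nova1 (0.82). For Aldh1a1 the nearest genes were Galnt17 (0.95), Efs (0.94) and Lpar1 (0.94), and for Crabp2 they were Atp6v0e2, St8sia2 and Dynlrb1 (0.90 each). Rara was closest to Uvrag (0.85), Atp6v1d (0.84) and Gng2 (0.84), Rarb to Kank1 (0.90), Zfp354c (0.89) and Vstm4 (0.88), and Rarg to Fgf9 (0.80), Tubb2a (0.79) and Rcor2 (0.77).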

How the data were processed

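The authors deposited a single matrix (19169 genes, 13432 cells) on a natural log scale: UMIs were scaled to 10000 per cell and 1 was added before the log was taken. The study's methods give Cell Ranger 7.0.1, Seurat 4.3.0, DoubletFinder 2.0.4 for doublets, removal of cells with more than 10% mitochondrial RNA, and Harmony 1.2.0, and name more retained cells than the table holds; the submitters' processing notes give Cell Ranger 2.1.1 and the build mm10. The barcode's ending gives the library. No mitochondrial gene is listed, so that filter could not be checked.

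The log was undone and whole UMIs recovered, with a largest distance of 0.248 UMI from a whole number over 29528482 values above 0 (13 were over 0.1); the step and the ratio intervals were tested on simulated data. Of the cells, 686 and 633 in the WT- and KO-labelled libraries had under 1000 UMIs, and all were kept. Clustering used 2000 variable genes without the retinoid and target lists, 30 principal components, Harmony's steps rewritten in numpy 2.4.6, 20 neighbors and Louvain clustering at resolution 0.8 (igraph 0.11.9, Python 3.11.15). It gave 29 clusters, of which 22 were named. A cluster took the name of its best marker list where at least 3 markers were above other cells and no second lineage reached 50% of the score, and stayed unnamed where its leading genes were of another type or where it had low depth and no marker led; some of these naming rules were chosen with the clusters in view. Groups within a type used 20 components and stayed unnamed where none of their markers was among their 10 leading genes. Scrublet, in scanpy 1.11.5, marked 101 (1.59%) and 109 (1.54%) cells, left out only as an alternative.

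Named genes, of which 1 is not reported here, were the 9 members in each type with at least 50 cells per library, the other listed genes that had at least 200 UMIs over both libraries, each in the type of its highest level, the pairs of member and type with at least 50 UMIs, and the 3 genes most like each member. The members and lists were chosen with earlier results of these data known. With 1 library per genotype no test was run. Intervals and floors (3 counts) cover counting error only.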

Additional observations from a re-analysis of the deposited data

How the results depend on the processing

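No paired analysis was possible because there is 1 library per genotype, and none could be left out. Over 12 alternatives, Cyp26b1 in endothelial-like cells stayed between -2.33 and -2.23 on the log2 scale, and Rbp4 in tenocyte-like cells between 1.18 and 2.32. Not every alternative could change a given ratio. Those that altered only the minimum of UMIs leave the ratio of a pair as it was. Leaving out some FAP-like cells does not touch endothelial-like cells. Cyp26b1 in FAP-like cells ranged from -2.68 (cells thinned before clustering) to -1.09 and Aldh1a3 in endothelial-like cells from -1.50 to -1.25. Rara in lymphatic-like cells ranged from -0.91 to -0.08. The pairs past 1.5-fold numbered 9 with at least 50 UMIs, 22 with at least 20 and 39 with no minimum, and 8 to 11 under the other alternatives. Aldh1a2 in macrophage-like cells turned to -0.13 without integration. As an average of single cells' scaled values, Aldh1a2 in FAP-like cells was at -0.12 and Rarg in tenocyte-like cells at -0.22. Rbp4 in FAP-like cells was at 0.29 with cells thinned before clustering and at 0.17 without integration. The cause of these shifts was not tested. Leaving out FAP-like cells of groups led by endothelial or immune genes, an alternative chosen after seeing the data, left 9 pairs past 1.5-fold. Genes with few UMIs in small types, such as Rarb outside tenocyte-like cells, were limited by depth.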
